A study of Homo sapiens with 18 samples.

Results

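Serpins form a protease inhibitor family in which some members are made with a signal peptide and enter the secretory pathway, while the clade B members lack a cleaved signal peptide and stay mainly in the cytosol. The genes described here were chosen by name for that split. They are 5 serpins with a signal peptide (SERPING1, SERPINE2, SERPINF1, SERPINI1 and SERPINH1) and 4 cytosolic clade B serpins (SERPINB1, SERPINB6, SERPINB8 and SERPINB9), or 9 of the 25435 rows of the count table, set beside 27 other rows with a SERPIN symbol. SERPINH1 is not exported, since it is a collagen chaperone that stays in the endoplasmic reticulum (ER), so the first class is called secretory here rather than secreted.

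RNA-Seq was performed on HEK293doxERN2 cells, a human embryonic kidney line in which doxycycline switches on a FLAG-tagged ERN2 transgene. ERN2 (IRE1β) is an ER stress sensor with endonuclease activity. Doxycycline was given at doses of 0, 10 and 100 ng/mL over 24 hours, and each dose was combined with 3 hours of either DMSO vehicle or 200 nM thapsigargin, which blocks calcium uptake into the ER and so provokes ER stress, giving 6 groups of 3 libraries. All groups carry the transgene, doxycycline was not given to cells without it, and whether the line is 1 clone is not given in the sources used here, so the effects of doxycycline and of ERN2 cannot be told apart. The labels do not say whether the 3 libraries of a group came from separate cultures, so p-values measure the spread between these libraries, which may be technical.

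Most inhibitory serpins trap a protease by letting it cut an exposed reactive loop, after which the serpin changes shape and holds the enzyme in a covalent complex. Secretory serpins are translated at the ER membrane, and many, though not SERPINH1 or SERPINF1, control proteases of clotting, fibrinolysis and complement outside the cell. Clade B serpins protect cells from proteases that reach or leak into the cytosol. Under ER stress the IRE1 proteins splice XBP1 mRNA and can also cut other mRNAs, many of which are translated at the ER.

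Libraries held 14876416 to 24652240 counts. ERN2 stood at 7.79 ± 1.27, 35.2 ± 18.1 and 270.0 ± 34.1 CPM (read counts scaled to library size with TMM factors; mean ± SD, n = 3) at 0, 10 and 100 ng/mL in vehicle, and at 12.2 ± 1.92, 65.8 ± 41.0 and 207 ± 56.0 CPM in thapsigargin, so the libraries followed the dose labels, although the 10 ng/mL groups were uneven. The table does not separate transgene from endogenous ERN2 reads. An extraction text in the labels speaks of colon crypt cells, but of 8 colon epithelial markers 7 had at most 9 counts in any library and CDX2 had 56 to 161. The 6 HEK293 markers had 17 or more counts in each library, with medians from 2.95 CPM for PAX2, below that of CDX2 (5.54 CPM), to 1859 CPM for VIM. Single libraries moved the counts of calls over all genes, up or down. Without vehicle library 3 at 100 ng/mL, those at 100 against 10 ng/mL fell from 356 to 0. Without thapsigargin library 2 at 100 ng/mL, those at that step in thapsigargin fell from 805 to 42. Leaving out vehicle library 1 at 10 ng/mL raised the calls at 10 against 0 ng/mL from 28 to 2743, and leaving out thapsigargin library 1 at 100 ng/mL raised those at 100 against 0 ng/mL from 1512 to 3950, those of thapsigargin against vehicle at 100 ng/mL from 29 to 2568 and those of the interaction at 100 ng/mL from 6 to 1286.

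The start of the coding sequence shows the difference by which the classes were chosen. In the first 90 coding bases below, read from GENCODE 29 transcripts on GRCh38, capitals mark the codons of the most hydrophobic stretch of 11 residues among the first 40 residues. The stretch of SERPINB6, at residues 27 to 37, runs on past the bases shown. The genes shown are those with a call in the comparisons that follow, and SERPINB6 as the most abundant cytosolic member.
SERPING1: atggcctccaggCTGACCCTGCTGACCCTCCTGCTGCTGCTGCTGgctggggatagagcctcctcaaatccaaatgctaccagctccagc
SERPINE2: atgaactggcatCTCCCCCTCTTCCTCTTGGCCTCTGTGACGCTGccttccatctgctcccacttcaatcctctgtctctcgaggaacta
SERPINI1: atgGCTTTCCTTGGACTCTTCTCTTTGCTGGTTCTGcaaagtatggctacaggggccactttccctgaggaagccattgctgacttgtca
SERPINH1: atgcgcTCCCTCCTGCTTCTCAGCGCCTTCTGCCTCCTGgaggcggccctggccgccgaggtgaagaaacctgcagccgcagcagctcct
SERPINB6: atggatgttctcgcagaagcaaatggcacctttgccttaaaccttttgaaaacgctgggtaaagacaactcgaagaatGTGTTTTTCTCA
SERPINB8: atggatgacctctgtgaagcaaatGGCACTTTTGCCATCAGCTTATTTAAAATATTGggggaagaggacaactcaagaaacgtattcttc
SERPINB9: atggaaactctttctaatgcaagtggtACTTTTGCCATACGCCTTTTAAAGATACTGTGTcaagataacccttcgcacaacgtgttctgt

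The mean hydropathy of that stretch on the Kyte-Doolittle scale, where higher is more hydrophobic, was 2.25 to 3.22 in the 5 secretory members and 1.26 to 1.67 in the 4 cytosolic members. The ranges do not overlap. The classes were chosen by the presence of a signal peptide, so this separation describes that choice and tests nothing. Of 19425 coding genes scored in the same way, 24.468% reached 2. The lowest secretory score was that of SERPINE2 and the highest that of SERPINF1.

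The genes lie on several chromosomes of GRCh38. SERPINB1 (chr6:2832332-2842006), SERPINB9 (chr6:2887266-2903280) and SERPINB6 (chr6:2948159-2972165) are neighbours on the minus strand, and SERPINB8 (chr18:63969925-64019779) is on the plus strand. SERPING1 (chr11:57597387-57614853) and SERPINH1 (chr11:75562056-75572783) share chromosome 11, SERPINE2 (chr2:223975112-224039319) is on the minus strand, and SERPINI1 (chr3:167735243-167825568) and SERPINF1 (chr17:1761959-1777574) are on the plus strand. The gene model of SERPINB8 shares 11850 bases with HMSD on the same strand and 257 bases with the antisense gene AC009802.1, so its counts are less certain than those of the other members, which overlap no annotated gene.

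To compare levels between genes, CPM were divided by the length of the principal transcript. In uninduced, vehicle-treated cells SERPINH1 led with 84.3 ± 5.09 CPM per kilobase (mean ± SD, n = 3), followed by SERPINB6 with 57.5 ± 4.27, SERPINE2 with 18.1 ± 1.75 and SERPINB1 with 12.3 ± 2.21 on the same scale. SERPINB8 stood at 3.21 ± 0.383, SERPINI1 at 1.77 ± 0.0796 and SERPINF1 at 1.13 ± 0.0700 CPM per kilobase. SERPINB9 at 0.703 ± 0.0437 and SERPING1 at 0.445 ± 0.0253 were lowest. Both classes thus held abundant and scarce members.

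**Figure D1:**
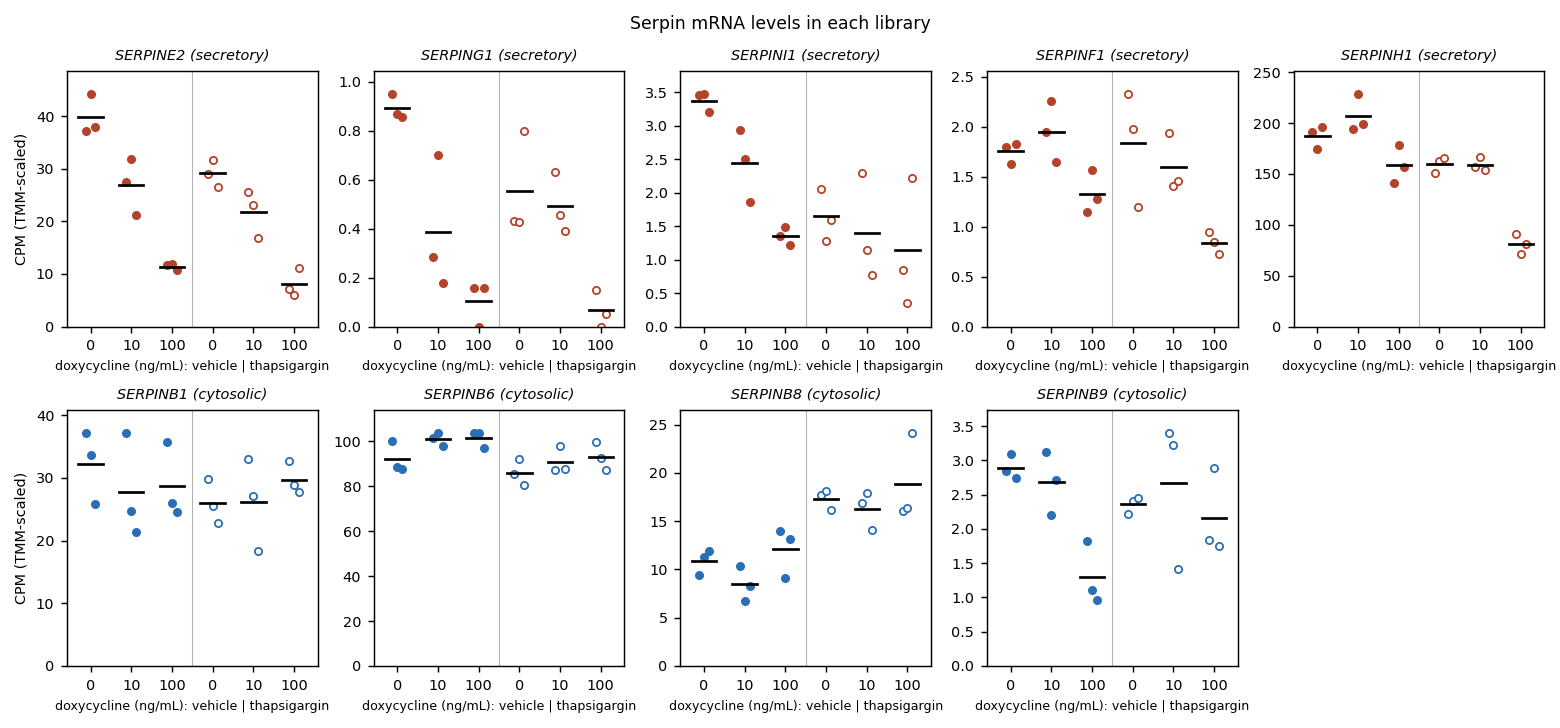
Level of each serpin in each library, in TMM-scaled CPM on linear axes that start at 0, for 0, 10 and 100 ng/mL doxycycline in vehicle (filled points) and thapsigargin (open points), with secretory members in red, cytosolic members in blue and a line at the mean of 3 libraries. SERPINE2 steps down with dose in both conditions, SERPINH1 is lowest at 100 ng/mL with thapsigargin, and SERPINB6 stays between 80.6 and 104 CPM.

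Several secretory serpins were lower at high ERN2 induction in vehicle-treated cells. At 100 against 0 ng/mL doxycycline 3 of 5 secretory members and 1 of 4 cytosolic members fell and none rose at an adjusted p under 0.01 (edgeR quasi-likelihood test, Benjamini-Hochberg adjustment over 14444 genes), while 8.33% of all genes tested were called and 7.49% were called lower. The fallers were SERPING1, SERPINE2, SERPINI1 and SERPINB9. The median log2 fold change was -1.35 over the secretory members, -0.06 over the cytosolic members and -0.01 over all genes tested. Without SERPING1, the scarcest member, 2 of 4 secretory members were called lower and the secretory median was -0.89. SERPING1 passed the filter on low counts only through its uninduced libraries. Of the 9 members 5 had no overlap between the 0 and 100 ng/mL libraries, against 35.8% of all genes tested.

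SERPINE2 (protease nexin-1), an inhibitor of thrombin and plasminogen activators that stays near the cell surface, gave the clearest change. In vehicle its libraries stood at 37.3, 44.2 and 38.0 CPM without doxycycline, at 27.5, 31.9 and 21.3 CPM with the low dose and at 11.7, 11.9 and 10.7 CPM at 100 ng/mL. No value of one dose overlapped that of another. SERPINE2 fell by 72.1% from 0 to 100 ng/mL (log2 fold change -1.84 ± 0.13, SE; edgeR adjusted p = 1.35e-06), and by 58.3% from 10 to 100 ng/mL (-1.26 ± 0.17, edgeR adjusted p = 0.00317). The second call was lost in 3 of the 6 fits that left out 1 library, without 10 ng/mL library 2 (edgeR adjusted p = 0.0208) or without 100 ng/mL library 1 (0.0120) or 3 (0.0309). In these 3 fits calls over all genes fell from 356 to 9, 21 and 0. The difference between 10 and 0 ng/mL, -0.57 ± 0.15, did not pass (edgeR adjusted p = 0.0771), although it did without 10 ng/mL library 1 (edgeR adjusted p = 0.00982).

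With thapsigargin the same order was seen for SERPINE2. Its libraries stood at 29.1, 31.8 and 26.5 CPM without doxycycline, at 25.6, 23.1 and 16.9 CPM with 10 ng/mL and at 7.14, 6.06 and 11.1 CPM at 100 ng/mL. SERPINE2 fell by 72.2% from 0 to 100 ng/mL (-1.85 ± 0.22, edgeR adjusted p = 9.08e-05), and the interaction of thapsigargin with this dose effect was 0.06 ± 0.26 (edgeR adjusted p = 0.914). From 10 to 100 ng/mL it fell by 62.7% (-1.42 ± 0.25, edgeR adjusted p = 0.00279), a call lost without 10 ng/mL library 1 (0.0218) or 2 (0.0223) or without 100 ng/mL library 2 (0.0357). Calls over all genes fell from 805 to 217, 143 and 42 in these fits. Between 0 and 10 ng/mL the log2 difference was -0.42 ± 0.17 and no gene of the table was called. Same-numbered libraries deviated together in this comparison, and with the replicate number as a block SERPINE2 passed (-0.44, edgeR adjusted p = 0.00569). The block raised the calls over all genes there from 0 to 564.

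SERPING1, the C1 inhibitor that blocks the first proteases of complement and the contact system, was scarce. Its raw counts in vehicle were 19, 16 and 15 without doxycycline, 6, 14 and 4 with the low dose and 3, 0 and 3 with the high dose. The groups at 0 and 100 ng/mL did not overlap, and SERPING1 fell by 88.8% between them (log2 fold change -3.16 ± 0.59, edgeR adjusted p = 0.00268). The filter on low counts kept SERPING1 only in comparisons that held the uninduced vehicle group, where its counts were highest. Its call therefore depended on that group being high, and the fall is given as a description. The summed counts, 50 against 6, gave a ratio of 0.108 with an exact 95% interval of 0.0378 to 0.251 that covers counting error only. The call was lost with the replicate number as a block (edgeR adjusted p = 0.0117) and without vehicle library 1 at 0 ng/mL (0.0106).

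With thapsigargin SERPING1 counts were 8, 8 and 14 without doxycycline, 16, 10 and 8 with the low dose and 3, 0 and 1 with the high dose. The filter on low counts removed the gene from these comparisons, so only the ratio of summed counts is given. It was 0.136 at 100 against 0 ng/mL, with an exact 95% interval of 0.0348 to 0.386 for counting error only, and 0.914 (0.543 to 1.55) at 10 against 0 ng/mL. SERPING1 thus had few reads at 100 ng/mL in both conditions.

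SERPINI1 (neuroserpin), an inhibitor of tissue plasminogen activator best known from neurons, stood at 3.45, 3.47 and 3.20 CPM in uninduced vehicle libraries, at 2.94, 2.51 and 1.86 CPM with 10 ng/mL and at 1.36, 1.48 and 1.22 CPM with 100 ng/mL. The 3 doses did not overlap, where 29.8% of all genes did not overlap at 10 against 0 ng/mL and 22.9% at 100 against 10 ng/mL. Neither step passed, at -0.48 ± 0.23 from 0 to 10 ng/mL and -0.87 ± 0.27 from 10 to 100 ng/mL (edgeR adjusted p = 0.187 and 0.110). SERPINI1 fell by 60.8% from 0 to 100 ng/mL (log2 fold change -1.35 ± 0.22, edgeR adjusted p = 0.00107), a call lost when all 6 groups entered 1 fit (edgeR adjusted p = 0.0375). SERPINI1 also fell by 50.9% with thapsigargin at 0 ng/mL (-1.03 ± 0.24, edgeR adjusted p = 0.00873), to 2.06, 1.28 and 1.59 CPM. That call was lost whichever of the 6 libraries was left out, with edgeR adjusted p-values of 0.0113 to 0.0394.

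In thapsigargin-treated cells at 100 ng/mL the SERPINI1 libraries were far apart, at 0.843, 0.352 and 2.22 CPM, and overlapped those at 0 ng/mL. The dose difference was -0.50 ± 0.50 (edgeR adjusted p = 0.510), and it was -1.39 without library 3 of the 100 ng/mL group (edgeR adjusted p = 0.0743). Library 3 of that group also had the highest SERPINE2 (11.1 CPM) and SERPINB8 (24.1 CPM) of its group. Its ERN2 level, 175 CPM, equalled that of library 2 to 3 digits. Whether these values share a source was not tested.

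SERPINF1 (pigment epithelium-derived factor), a serpin that inhibits no protease, gave no call. SERPINF1 changed by -0.43 ± 0.26 in vehicle and by -1.14 ± 0.38 in thapsigargin on the log2 scale (edgeR adjusted p = 0.302 and 0.0520). In thapsigargin no SERPINF1 library overlapped between 0 ng/mL (2.33, 1.97 and 1.20 CPM) and 100 ng/mL (0.943, 0.845 and 0.723 CPM), and with all 6 groups in 1 fit the edgeR adjusted p was 0.00421.

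SERPINH1 (HSP47), which binds procollagen in the ER and hands it on to the Golgi, was the most abundant member in uninduced, vehicle-treated cells. Like the other 4 secretory members, it had its lowest group mean at 100 ng/mL with thapsigargin. In vehicle its libraries stood at 191, 175 and 196 CPM without doxycycline, at 194, 229 and 199 CPM with 10 ng/mL and at 141, 178 and 157 CPM at 100 ng/mL. The groups at 0 and 100 ng/mL overlapped, and the difference, -0.28 ± 0.12 on the log2 scale, did not pass (edgeR adjusted p = 0.125). With thapsigargin SERPINH1 stood at 151, 162 and 165 CPM without doxycycline, at 156, 167 and 153 CPM with 10 ng/mL and at 90.6, 71.0 and 80.8 CPM at 100 ng/mL. The 3 libraries at 100 ng/mL lay below all others, and SERPINH1 fell by 49.5% from 0 ng/mL (-0.99 ± 0.14, edgeR adjusted p = 0.000319) and by 49.0% from 10 ng/mL (-0.97 ± 0.15, edgeR adjusted p = 0.00136). The latter call was lost with the replicate block (edgeR adjusted p = 0.0102) and without 10 ng/mL library 1 or 2 or 100 ng/mL library 2 (0.0105, 0.0187 and 0.0229). Calls over all genes fell from 805 to 384 with the block and to 217, 143 and 42 without these libraries.

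The interaction asks whether the dose effect on SERPINH1 differed with thapsigargin. It was -0.64 ± 0.16 on the log2 scale and did not pass in edgeR (adjusted p = 0.0629), though it did in DESeq2 (-0.71, adjusted p = 0.00456) and in edgeR without thapsigargin library 1 at 100 ng/mL (-0.79, adjusted p = 0.00462), the library whose removal raised the calls over all genes. Thapsigargin against vehicle at 100 ng/mL gave -0.95 ± 0.15 (edgeR adjusted p = 0.0131, and 0.000224 without that library, DESeq2 adjusted p = 1.41e-06). Over all genes DESeq2 raised the calls from 6 to 341 in the interaction and from 29 to 728 for thapsigargin against vehicle at 100 ng/mL. A difference in response therefore depended on the test.

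Among the cytosolic serpins, SERPINB6, an inhibitor of cathepsin G and related serine proteases, was the steadiest in level. Its libraries ranged from 80.6 to 104 CPM over all 18, and its log2 fold change at 100 against 0 ng/mL was 0.09 ± 0.11 in vehicle and 0.11 ± 0.14 in thapsigargin (edgeR adjusted p = 0.580 and 0.610). SERPINB1, an inhibitor of neutrophil elastase, was between 18.4 and 37.1 CPM, with -0.21 ± 0.17 and 0.19 ± 0.17 in the same comparisons (edgeR adjusted p = 0.442 and 0.469). Neither gene passed in any comparison.

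SERPINB8, an inhibitor of the proprotein convertase furin, was higher with thapsigargin. At 0 ng/mL it stood at 9.40, 11.3 and 11.9 CPM in vehicle and at 17.7, 18.1 and 16.1 CPM in thapsigargin, and it rose by 60.6% (log2 fold change 0.68 ± 0.14, edgeR adjusted p = 0.00484). The groups did not overlap at this dose, nor at 10 ng/mL (10.3, 6.77 and 8.26 against 16.9, 18.0 and 14.0 CPM) or 100 ng/mL (14.0, 9.06 and 13.2 against 16.0, 16.3 and 24.1 CPM). The log2 differences, 0.94 ± 0.19 with 10 ng/mL and 0.66 ± 0.23 with 100 ng/mL, did not pass (edgeR adjusted p = 0.0178 and 0.113). That at 10 ng/mL did pass with the replicate block (edgeR adjusted p = 2.17e-06), in DESeq2 (0.000203), with no filter (0.00397), with all 6 groups in 1 fit (0.0046), and without vehicle library 1 (0.00828) or thapsigargin library 3 (0.00569). In these fits calls over all genes also rose, from 212 to 3620 with the block and to between 248 and 1039 in the others. The call at 0 ng/mL was lost with all 6 groups in 1 fit (edgeR adjusted p = 0.0239) and without vehicle library 1 (0.0295) or thapsigargin library 1 (0.0205) or 2 (0.0189). The dose of doxycycline gave no call for SERPINB8, with 0.11 ± 0.18 in vehicle and 0.11 ± 0.19 in thapsigargin at 100 against 0 ng/mL.

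SERPINB9, the inhibitor of granzyme B, was the cytosolic member that fell. In vehicle it stood at 2.85, 3.09 and 2.74 CPM without doxycycline and at 1.83, 1.11 and 0.957 CPM at 100 ng/mL, without overlap, and fell by 56.6% (log2 fold change -1.20 ± 0.27, edgeR adjusted p = 0.00927). This call was close to the threshold. It was lost with all 6 groups in 1 fit (edgeR adjusted p = 0.0159), with the replicate block (0.0215), with library totals in place of TMM factors (0.0138) and in 5 of 6 fits without 1 library (0.0206 to 0.0425), all but that without 100 ng/mL library 1. With thapsigargin SERPINB9 stood at 2.22, 2.40 and 2.45 CPM without doxycycline and at 1.84, 2.89 and 1.76 CPM at 100 ng/mL, a difference of -0.14 ± 0.31 (edgeR adjusted p = 0.778). The interaction was 1.11 ± 0.39 (edgeR adjusted p = 0.115).

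**Figure D2:**
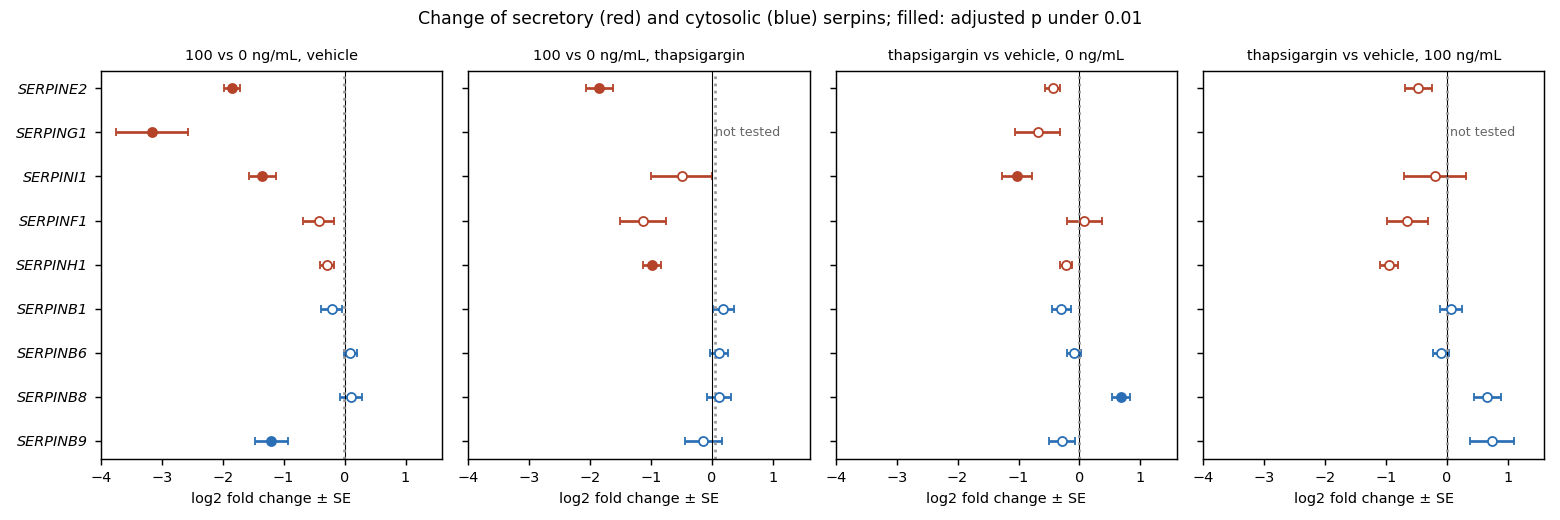
Log2 fold change ± SE of each serpin in 4 comparisons of 3 libraries against 3, with secretory members in red, cytosolic members in blue, filled points at an edgeR adjusted p under 0.01 and a dotted line at the median of all genes tested. At 100 ng/mL the secretory members lie at or left of -0.28 in vehicle and -0.50 in thapsigargin, and SERPINB8 is the member called higher with thapsigargin at 0 ng/mL.

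In thapsigargin-treated cells at 100 against 0 ng/mL 2 of the 4 secretory members tested fell (SERPINE2 and SERPINH1) and 0 of 4 cytosolic members were called, with 10.5% of all genes called and 9.0% called lower. By an unadjusted p under 0.05, 3 secretory members were lower and 0 cytosolic members differed, where 19.3% of all genes were lower and 16.3% higher, and DESeq2 called 2 of the members. The median log2 fold change was -1.06 over the secretory members, 0.11 over the cytosolic members and 0.04 over all genes tested. At 100 against 10 ng/mL it was -0.71 and -0.0007 in vehicle and -0.95 and 0.11 in thapsigargin, where 2.45% and 5.55% of all genes were called. Groups that do not overlap were seen for 3 of 8 members tested at 100 against 0 ng/mL in thapsigargin (36.5% of all genes), for 5 of 8 at 100 against 10 ng/mL in vehicle (22.9%) and for 3 of 8 at that step in thapsigargin (31.4%). These comparisons share groups, so they are not independent of each other.

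At 10 against 0 ng/mL none of the members was called by edgeR or by DESeq2, in vehicle (0.193% of all genes called by edgeR) or in thapsigargin (0.0%). At an unadjusted p under 0.05, 2 secretory members (1 without SERPING1) were lower in vehicle and 1 in thapsigargin, where 16.5% and 2.99% of all genes were lower. Without vehicle library 1 at 10 ng/mL, SERPINE2 was called in vehicle, beside the 2743 genes given above. The median difference was -0.48 for the secretory and -0.16 for the cytosolic members in vehicle, and -0.21 and 0.03 in thapsigargin. Without SERPING1 the secretory median in vehicle was -0.17. In vehicle 3 of 9 members, SERPING1, SERPINE2 and SERPINI1, lay below their uninduced libraries without overlap, where 29.8% of all genes did not overlap in either direction.

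Thapsigargin against vehicle called 2 of 9 members at 0 ng/mL, SERPINI1 lower and SERPINB8 higher, where 11.2% of all genes were called. SERPINE2 differed by -0.44 ± 0.12 there, short of the threshold in edgeR (adjusted p = 0.0218) and past it in DESeq2 (adjusted p = 0.00791) and with the replicate block (edgeR adjusted p = 0.00178). Calls over all genes rose from 1611 to 2302 in DESeq2 and to 3571 with the block. At 10 and 100 ng/mL edgeR called 0 of the 8 members tested, with 1.45% and 0.201% of all genes called, while DESeq2 called 1 member at each dose. DESeq2 raised the calls over all genes from 212 to 1039 and from 29 to 728. At both doses 1 secretory member was lower and 1 cytosolic member higher at an unadjusted p under 0.05, where 11.0% and 12.3% of all genes were lower and 13.6% and 14.6% higher. Members without overlap between vehicle and thapsigargin numbered 6 of 9 at 0 ng/mL (40% of all genes), 2 of 8 at 10 ng/mL (28.5%) and 3 of 8 at 100 ng/mL (25.8%). With the replicate block SERPINH1 was called at 10 ng/mL (-0.39, edgeR adjusted p = 0.000164). In that fit 3620 of 14607 genes were called, against 212 without the block. In the interactions edgeR called no member, with 0.0% of genes called for 10 ng/mL and 0.0406% for 100 ng/mL. At an unadjusted p under 0.05 there were 0 members at 10 ng/mL, and 1 secretory member lower and 1 cytosolic member higher at 100 ng/mL, where 9.15% of all genes were lower and 15.6% higher.

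The split between the classes was set beside all other genes with a score for the amino-terminal stretch. At 100 against 0 ng/mL in vehicle, 2249 genes with a score of 2 or more had a median log2 fold change of -0.44 and 674 were called lower, against 0.02 and 352 of the 10466 genes below 2. In thapsigargin the medians were -0.67 and 0.10, and 770 of 2209 and 454 of 10446 genes were called lower. Of the secretory serpins, which all score above 2, 3 of 5 (2 of 4 without SERPING1) and 2 of 4 were called lower. Among cytosolic members SERPINB9 had the highest score, 1.67, and was still below 2.

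**Figure D3:**
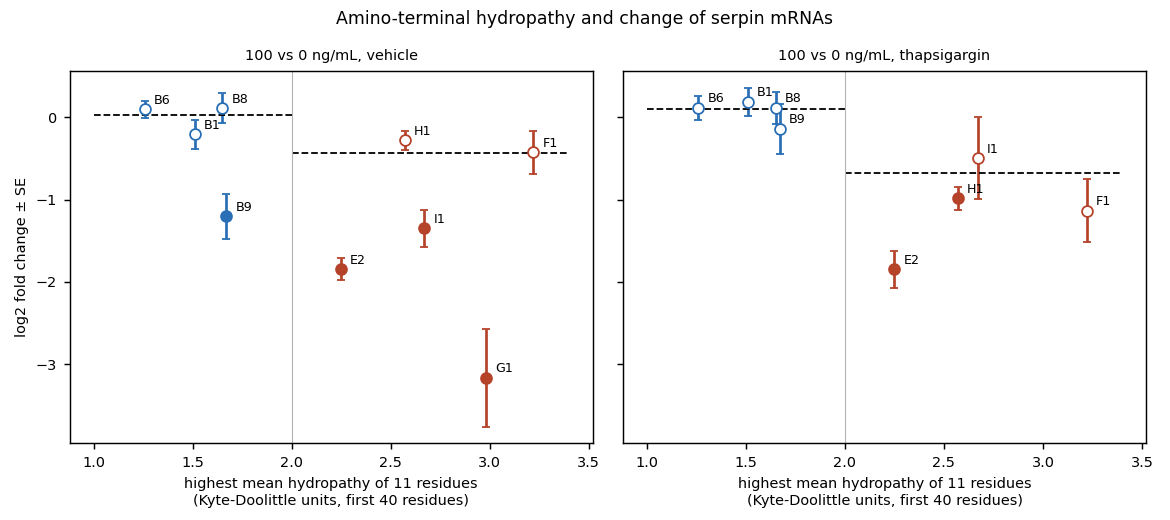
Log2 fold change ± SE at 100 against 0 ng/mL doxycycline (vertical) against the highest mean Kyte-Doolittle hydropathy of 11 residues within the first 40 (horizontal), for vehicle (left) and thapsigargin (right), with filled points at an edgeR adjusted p under 0.01 and dashed lines at the medians of other genes below and at or above a score of 2. The secretory members (red) lie right of 2, and within them the change does not follow the score: SERPINF1 has the highest score, 3.22, and SERPINE2 the lowest, 2.25.

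IRE1 proteins are known to cut mRNA at CUGCAG in a stem loop. The DNA letters CTGCAG, which read the same on both strands, were counted in the first 1000 coding bases, where 60.528% of 12424 genes hold them. SERPINH1 held 3, SERPINF1, SERPINB6, SERPINB8 and SERPINB9 held 1 each, and the others held 0. The letters were thus in 2 of 5 secretory and 3 of 4 cytosolic members. In the whole coding sequence SERPINH1 held 3, SERPING1 and SERPINF1 held 2 each, SERPINB6, SERPINB8 and SERPINB9 held 1 each, and SERPINE2, SERPINI1 and SERPINB1 held 0. Only the windows of SERPINH1, which held the most, are shown. They start at coding bases 59, 496 and 937, with the letters in capitals.
SERPINH1 59: aggtgaagaaacCTGCAGccgcagcagctc
SERPINH1 496: aagcgcagcgcgCTGCAGtccatcaacgag
SERPINH1 937: gtgacccatgacCTGCAGaaacacctggct

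Genes that work with these serpins were described from lists. Of 19 other secreted or membrane-anchored protease inhibitors 12 were tested at 100 against 0 ng/mL in each condition, and 5 fell in vehicle and 6 in thapsigargin with none rising. Over all genes tested, 7.49% and 9% were called lower in these comparisons. TIMP1, an inhibitor of metalloproteases, had the lowest value in vehicle (log2 fold change -2.37), followed by PCSK1N at -1.65 and CST3 (cystatin C) at -1.38, and SPINT1 at -0.04, TIMP3 at -0.10 and RECK at -0.16 were at the other end. Of 7 cytosolic protease inhibitors that are no serpins, 6 were tested and 0 were called by edgeR in either condition, while at an unadjusted p under 0.05 there were 0 in vehicle and 5 higher in thapsigargin, where 16.3% of all genes were higher. Their values in vehicle ran from BIRC2 (-0.19), BIRC3 (-0.13) and CAST (-0.04) to XIAP (0.05), CSTB (0.07) and PEBP1 (0.19). The medians of the secreted and the cytosolic list were -0.77 and 0.0035 in vehicle and -1.17 and 0.42 in thapsigargin.

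Of 20 collagens and collagen-processing genes that work with SERPINH1, 18 were tested, and 10 fell in vehicle and 13 in thapsigargin, with none rising. Of all genes tested 7.49% and 9% were called lower. COL4A1 (-2.92), COL2A1 (-2.53) and COL3A1 (-2.26) had the lowest log2 fold changes in vehicle, and COL5A2 (0.34), P4HB (-0.04) and PPIB (-0.15) the highest. P4HB and PPIB, folding enzymes of the ER, gave no call in vehicle and fell with thapsigargin, by log2 fold changes of -0.99 and -0.98 (edgeR adjusted p = 0.000346 and 0.000673). The collagens COL4A1 and COL2A1 fell in both conditions.

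SERPINH1 is also a heat shock gene, and 12 heat shock genes were set beside it, of which HSPD1 and HSPE1 encode mitochondrial chaperones and the others mainly cytosolic proteins. In vehicle 0 of 12 were called by edgeR and 3 were higher at an unadjusted p under 0.05 (12.2% of all genes), with values from CHORDC1 (-0.22), HSP90AA1 (-0.20) and HSPH1 (-0.18) to HSPA1B (0.31), HSPB1 (0.36) and BAG3 (0.51). In thapsigargin 5 of 12 rose at 100 against 0 ng/mL, with a median log2 fold change of 0.65, where SERPINH1 fell. Of all 14358 genes tested there, 220 were called higher. HSPE1 was among the 5 (0.95, edgeR adjusted p = 0.00506). With thapsigargin against vehicle at 0 ng/mL 6 of 12 fell, HSPE1 again among them, with a median of -0.54. Of all 14397 genes tested there, 682 were called lower.

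**Figure D4:**
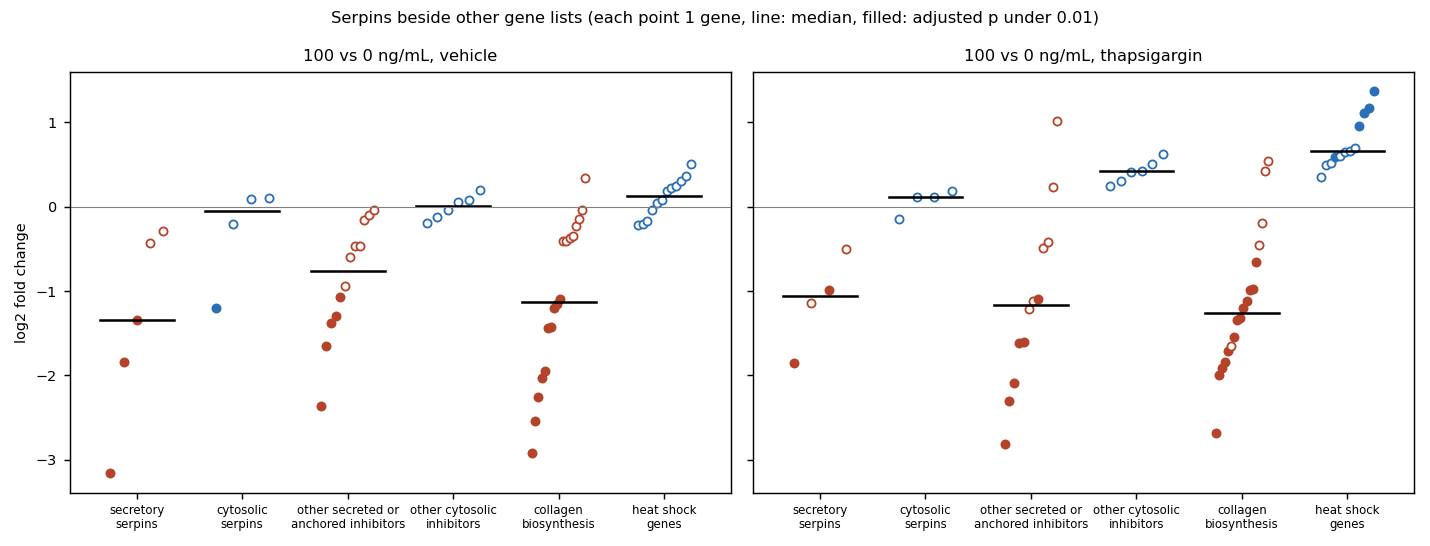
Log2 fold change at 100 against 0 ng/mL doxycycline in vehicle (left) and thapsigargin (right) for each tested gene of 6 lists, with a line at each median and filled points at an edgeR adjusted p under 0.01. Secretory lists (red) have medians of -0.77 to -1.35 and the other lists (blue), cytosolic but for HSPD1 and HSPE1 of the heat shock genes, of -0.06 to 0.65. The value of -1.35 is that of the secretory serpins in vehicle. It is -0.89 without SERPING1, which passed the filter only through its uninduced libraries and is absent from the thapsigargin panel.

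Of 21 protease targets and receptors of the serpins, 11 were tested in vehicle and 12 in thapsigargin at 100 against 0 ng/mL, and 4 and 6 fell. The shares of all genes called lower were 7.49% and 9%. FURIN, the target of SERPINB8, had the lowest value in vehicle (log2 fold change -1.82), followed by the receptors LRP1 (-1.14), which takes up serpin-protease complexes, and VLDLR (-0.89). C1S (0.33), PLAUR (0.30) and CASP4 (0.08) had the highest. One of the 6 in thapsigargin was ELANE (neutrophil elastase), whose counts were 323, 5807 and 25 at 0 ng/mL with thapsigargin and at most 3 in every other library, so that its calls rest on 3 uneven libraries. ELANE passed the filter on low counts only through these libraries, where it was high. Its place among the genes tested and among the 6 therefore depended on that group, and its fall is given as a description only.

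Of the 27 other SERPIN rows 9 were at 0 in every library, 25 stayed under 10 counts, and SERPINB2 (plasminogen activator inhibitor 2), a clade B serpin found both inside and outside cells, was the one with a mean of at least 1 CPM. In thapsigargin it stood at 0.325, 0.374 and 0.456 CPM without doxycycline and at 2.18, 2.18 and 1.24 CPM with 100 ng/mL. The groups did not overlap, and SERPINB2 rose with a log2 fold change of 2.26 ± 0.42 (edgeR adjusted p = 0.00231). SERPINB2 passed the filter on low counts here only through the 100 ng/mL libraries, where it was high. Its call therefore depended on that group, and the rise is given as a description. In vehicle the difference was 0.96 ± 0.38 (edgeR adjusted p = 0.117). Thapsigargin against vehicle at 0 ng/mL gave -1.48 ± 0.36, just short of the threshold (edgeR adjusted p = 0.0106). SERPINB2 passed the filter there only through the vehicle libraries. The rise with dose in thapsigargin thus started from a low level, under 1 CPM.

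Over the 18 libraries, the genes whose log2 CPM were most like those of SERPINE2 among 11454 genes were NELL2, EMP2 and ROBO1 (Pearson r of 0.991, 0.987 and 0.986). For SERPINH1 they were PVRL2, EXT2 and GRINA (0.990, 0.990 and 0.989), for SERPING1 PCYOX1L, ERGIC3 and TMCO3 (0.915, 0.915 and 0.914), and for SERPINB6 ACTA2, ABHD14B and C1RL (0.912, 0.887 and 0.884). Between members, SERPINE2 had r of 0.872 with SERPING1, 0.793 with SERPINF1, 0.778 with SERPINH1 and 0.772 with SERPINI1, and with the cytosolic members 0.532 with SERPINB9, 0.062 with SERPINB1, -0.243 with SERPINB6 and -0.315 with SERPINB8. The libraries share dose and treatment, so these values describe likeness over the 6 groups.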

How the data were processed

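Poly(A) RNA libraries of HEK293doxERN2 cells (KAPA stranded kit, single-end reads) were aligned by the authors with STAR in the VIPER pipeline, and raw read counts per gene symbol were deposited for 18 libraries; the submitters' processing notes name STAR, DESeq2 and hg38, while versions, annotation and strand setting are not given in the sources used here. Groups, doses and replicate numbers came from the labels. A further gene is not reported here and entered no count or median of members. The members and gene lists were chosen with earlier results of these data known.

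Counts were tested with edgeR 4.0.16 (R 4.3.3; glmQLFit, glmQLFTest, TMM, filterByExpr at a minimum count of 10) on the groups compared, or on 12 libraries for an interaction, and p-values were adjusted by the Benjamini-Hochberg method across the genes kept, at a threshold of 0.01. SE was taken as log2 fold change over root F. CPM were TMM-scaled over 18 libraries. Scripts were tested on simulated data. An exact permutation of 3 libraries against 3 cannot go below a two-sided p of 0.10.

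Named were all members, other serpins with a mean of at least 1 CPM, the 3 lowest and 3 highest genes of each list in vehicle at 100 against 0 ng/mL, and for SERPING1, SERPINE2, SERPINH1 and SERPINB6 the 3 genes with the highest r of log2 CPM (prior count 2) among genes of at least 5 CPM. P4HB and PPIB in thapsigargin and ELANE were chosen after their values were seen. Positions, transcript lengths and sequences came from GENCODE 29.

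Alternatives were DESeq2 1.42.0, RLE factors, no filter, all 6 groups in 1 fit, a block for replicate number, a threshold of 0.05 and each library left out. Library totals in place of TMM, and medians without SERPING1, were added after seeing the data. Replicate pairs of a group differed beyond sampling noise (chi-square per degree of freedom 7.33 to 63.8). Same-numbered libraries, numbered in the titles, deviated together in all 3 pairs only at 10 against 0 ng/mL with thapsigargin (r of 0.658 to 0.764). At 100 against 10 ng/mL in vehicle 2 of 3 pairs had r over 0.1, up to 0.809. The same held for thapsigargin against vehicle at 0 ng/mL (up to 0.530) and at 10 ng/mL (up to 0.776). With the block, calls over all genes rose there from 356 to 1224, from 1611 to 3571 and from 212 to 3620.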

Additional observations from a re-analysis of the deposited data

Results flagged for a closer look

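None of the 9 serpins met a rule for a closer look. Groups of 3 libraries are too small to test for a lone outlying library. Of the genes used to check the labels, XBP1 and HSPA5 responded to dose differently in the 2 conditions. Both lay above vehicle with thapsigargin, without overlap, by log2 fold changes of 2.66 and 2.87 at 0 ng/mL. At 100 ng/mL these were 0.44 for XBP1, which did not pass (edgeR adjusted p = 0.0736), and 1.20 for HSPA5 (edgeR adjusted p = 0.00141). The interaction of thapsigargin with 100 against 0 ng/mL was -2.14 for XBP1 and -1.58 for HSPA5 on the log2 scale (edgeR adjusted p = 1.2e-06 and 0.00897). Log2 fold changes of XBP1 in vehicle and in thapsigargin were 0.84 and -0.20 at 10 against 0 ng/mL, 1.03 and -1.16 at 100 against 0 ng/mL and 0.21 and -0.96 at 100 against 10 ng/mL, without overlap of the groups in any of them. Those of HSPA5 were 0.84 and -0.80 at 100 against 0 ng/mL and 0.25 and -0.74 at 100 against 10 ng/mL. The interaction of XBP1 at 10 against 0 ng/mL, -1.04, did not pass (edgeR adjusted p = 0.0277), and the difference between the conditions at 100 against 10 ng/mL was not tested.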

How the results depend on the processing

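Directions of the serpins that were called held under every alternative, and the calls themselves were less firm. The number of members called moved as follows. For thapsigargin against vehicle at 0 ng/mL it was 3 in place of 2 at an adjusted p of 0.05, in DESeq2 and with the replicate block, with SERPINE2 gained. With all 6 groups in 1 fit it was 2 in place of 4 at 100 against 0 ng/mL in vehicle, 4 in place of 2 with thapsigargin, 0 in place of 2 for thapsigargin against vehicle at 0 ng/mL, and 1 in place of 0 at 10 and at 100 ng/mL. With the replicate block it was 2 at 100 against 0 and 2 at 100 against 10 ng/mL in vehicle, 1 at 10 against 0 and 1 at 100 against 10 ng/mL with thapsigargin, and 2 for thapsigargin at 10 ng/mL. An adjusted p of 0.05, DESeq2 or no filter each gave 1 for thapsigargin at 10 and 1 at 100 ng/mL, DESeq2 also gave 1 for the interaction at 100 ng/mL, and library totals gave 1 for thapsigargin at 0 ng/mL. With 1 library left out the counts ran from 0 to 1 at 10 against 0, from 2 to 4 at 100 against 0 and from 0 to 1 at 100 against 10 ng/mL in vehicle, from 0 to 2 at 100 against 10 ng/mL with thapsigargin, from 0 to 1 for thapsigargin at 0, 10 and 100 ng/mL, and from 0 to 1 for the interaction at 100 ng/mL. The secretory minus cytosolic difference in medians without SERPING1 was -0.0034 at 10 against 0 and -0.83 at 100 against 0 ng/mL in vehicle (-0.31 and -1.29 with it) and -0.14 for thapsigargin at 0 ng/mL (-0.25 with it). With 1 library left out it ran from -0.38 to -0.18 for thapsigargin at 0 ng/mL, and for the interaction from -0.26 to 0.15 at 10 and from -1.0033 to -0.0923 at 100 ng/mL. Signs turned for values that were not called, among them the interactions at 100 ng/mL of SERPINI1, from 0.92 to -0.0122, and of SERPING1, from 0.42 to -0.78, each with 1 library left out. The interaction of SERPINE2 was -0.0072 in DESeq2, -0.0064 with RLE factors, -0.0596 with all 6 groups and -0.12 with library totals, and -0.27 to 0.20 with 1 library left out. Likewise SERPINB8 ran from -0.0083 to 0.28 in vehicle and from -0.10 to 0.24 with thapsigargin, at 100 against 0 ng/mL. The cause was not tested. Library totals moved the median of all genes in that interaction from 0.04 to -0.14. Counts over all genes also moved by more than 1.5 times, for example, beside the single libraries named in the report, from 1203 to 750 with the block at 100 against 0 ng/mL in vehicle, from 1512 to 2641 with all 6 groups with thapsigargin, from 0 to 564 with the block at 10 against 0 ng/mL with thapsigargin, and from 29 to 728 with DESeq2 for thapsigargin at 100 ng/mL. Over all 18 libraries, same-numbered libraries had a mean correlation of deviations of 0.0874 and others of -0.0451, and 10 of 18 were best with their own number. Depth limits SERPING1 most, at 0 to 19 counts per library.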
